A study of Arabidopsis thaliana with 4 samples.

Results

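The 10 genes that make and export the cuticular waxes of the shoot, *KCS1*, *CER6*, *CER2*, *KCR1*, *CER10*, *CER1*, *CER3*, *CER4*, *CER5* and *ABCG11*, are described here in the *stk* mutant of *Arabidopsis thaliana* and in wild type. These 10 loci were chosen by their known roles and their locus identifiers from the 27206 loci for which expression was deposited. Earlier results of these data were known when the choice was made. The RPKM values of all gene models of a locus were added together. RPKM scales the reads of a gene model by its exon length and by the reads of the library, so levels of different genes can be set side by side. The mutant group carried the *stk*-/- genotype, a loss of function of the MADS-box gene *SEEDSTICK* (*STK*), which in the mutant line bears an insertion near a splice site, in the Columbia background, and wild type was of the same ecotype, both grown under short-day or long-day light. RNA came from whole inflorescences together with siliques up to 5 days after pollination, with 2 biological replicates for *stk* and 2 for wild type. The question put to the libraries was which transcripts differ when STK, a regulator of ovule and seed coat identity, is missing.

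Cuticular waxes are very-long-chain lipids that epidermal cells deposit on and within the cuticle of stems, leaves, flowers and fruits, where they limit water loss. Fatty acids are first lengthened at the endoplasmic reticulum by a complex of enzymes, a condensing enzyme (3-ketoacyl-CoA synthase), a ketoacyl-CoA reductase, a dehydratase and an enoyl-CoA reductase. The long acyl chains then enter an alkane-forming branch, which gives aldehydes, alkanes, secondary alcohols and ketones, or an alcohol-forming branch, which gives primary alcohols and wax esters. ABC transporters of the plasma membrane carry the products out of the cell. Cuticular wax is made in the epidermis and the samples were whole organs. A change in the number of epidermal cells and a change in RNA per epidermal cell therefore cannot be told apart in these values. RNA of these genes from other cells of the samples would be counted as well.

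The sequences before 3 of the genes are shown because 2 of them, *KCS1* and *CER4*, precede the members with the largest differences between the genotypes, and the third, *ABCG11*, holds a motif of epidermal genes in 2 copies. Each is the 250 bases before the gene start of RefSeq on TAIR10.1, whose nuclear chromosomes have the lengths of the TAIR10 build of the files, printed 5′ to 3′ on the strand of the gene. Capitals mark the L1 box, TAAATGCA or TAAATGTA, the letters that the epidermal homeodomain proteins ATML1 and PDF2 are known to bind. The *KCS1* sequence lies at chr1:59216-59465 on the minus strand, the *CER4* sequence at chr4:16207957-16208206 on the minus strand and the *ABCG11* sequence at chr1:6142152-6142401 on the plus strand.
KCS1: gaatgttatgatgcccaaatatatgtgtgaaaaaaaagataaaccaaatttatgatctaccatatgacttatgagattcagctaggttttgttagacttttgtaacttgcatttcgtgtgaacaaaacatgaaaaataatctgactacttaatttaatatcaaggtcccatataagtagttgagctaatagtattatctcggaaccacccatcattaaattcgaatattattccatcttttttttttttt
CER4: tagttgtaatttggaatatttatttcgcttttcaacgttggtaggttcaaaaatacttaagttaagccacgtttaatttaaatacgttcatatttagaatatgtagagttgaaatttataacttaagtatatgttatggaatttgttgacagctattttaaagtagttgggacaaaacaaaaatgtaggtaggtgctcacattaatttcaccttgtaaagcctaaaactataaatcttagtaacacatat
ABCG11: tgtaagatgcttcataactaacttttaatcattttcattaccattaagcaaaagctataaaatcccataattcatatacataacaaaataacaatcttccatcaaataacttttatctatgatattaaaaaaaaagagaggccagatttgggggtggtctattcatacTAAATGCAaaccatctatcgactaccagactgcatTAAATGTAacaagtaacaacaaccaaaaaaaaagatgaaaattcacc

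In the window from 250 bases before to 50 after the gene start, searched on both strands, an L1 box was present in 5.1% of 26709 genes and in 2 of the 10 wax genes, *CER5* and *ABCG11*. In *ABCG11* the copies start 82 and 47 bases before the gene start. The GCC box, GCCGCC, the letters bound by ethylene response factors, was in 2.6% of these windows and in 0 of the 10. No L1 box, GCC box or exact CArG box (CCWWWWWWGG, where W is A or T) was found in the windows of *KCS1* and *CER4*. With the window extended to 1000 bases before the start, the L1 box was in 16.4% of genes and in 3 of the 10 (*CER6* besides those named), and the GCC box in 9.1% of genes and again in 0 of the 10.

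The CArG box is the motif of MADS-domain proteins, the family of STK, and its sites are shown for that reason. Only the exact letters CCWWWWWWGG were searched. The study allowed up to 1 mismatched base and searched further from each gene. Sites with a mismatch were not counted here, so a gene without an exact box can still hold a site by the study's rule. The exact box was in 7.8% of the 26709 genes in the longer window and in 4 of the 10 wax genes, and in 3.1% of genes and 1 of the 10, *KCR1*, in the shorter one. By the gene starts of RefSeq, the sites lie 525 bases before *CER6*, 855 bases before *CER2* and 278 bases before *CER5*. In *KCR1* the site lies 30 bases after the RefSeq start. In the files, however, *KCR1* begins at 25391460, so there the same site lies before the gene. They are printed below as 30 bases on the strand of the gene with the CArG box in capitals. They are at chr1:25715530-25715559 (*CER6*, minus strand), chr4:12659822-12659851 (*CER2*, plus), chr1:19101524-19101553 (*CER5*, minus) and chr1:25391357-25391386 (*KCR1*, plus). A match is a description of the letters and says nothing of binding.
CER6: gtaatatatgCCTTTTAAGGtatatgtgct
CER2: ccacagttttCCAATTATGGacgacaaaat
CER5: tagtagacaaCCAAATATGGatcctttaat
KCR1: cctaaatttaCCATTTTTGGcaagtaaaat

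*STK* itself (AT4G09960) was read first as a check of the labels. It had 7.91 and 7.96 RPKM in the *stk* libraries, against 38.7 and 40.9 RPKM in the wild-type libraries, a log2 fold change of -2.19 (standard error 0.13, limma unadjusted p = 5.77e-06, Benjamini-Hochberg adjusted p = 0.0884). The read totals by which the RPKM values had been divided, recovered from the steps of these values, were 30.6 M and 33.7 M for *stk* and 17.0 M and 21.1 M for wild type. Added together, these totals all but equal the number of reads that the study reports as passing its quality filter. They therefore appear to count all reads past that filter and not the mapped reads alone. Any difference between libraries in the share of reads that mapped would then remain in the RPKM values, and this was not tested. The totals differ between libraries. The study's methods speak of a similar number of mapped reads for each, which is another measure. The sequencing lane in the file headers was lane 7 for *stk* replicate 1 and lane 1 for the other 3 libraries. Of the 6 epidermis markers (*ATML1*, *PDF2*, *PDF1*, *FDH*, *LCR* and *HDG1*), none passed an unadjusted p of 0.05 in limma, and their summed level was 714.1 and 703.4 RPKM in *stk*, against 876.3 and 678.7 RPKM in wild type. The summed level of 9 markers of the tapetum and pollen coat was lower, at 1253.6 and 1065.4 RPKM in *stk*, against 2018.0 and 1301.7 RPKM in wild type. Of these, 2 of 9 were past the unadjusted p, both lower, where 3.53% of all loci were lower. Both *stk* libraries were below both wild-type ones for 4 of the 9, against 26.8% of all loci. The largest part of the sum came from *GRP17*, at 737 and 728 RPKM in *stk*, against 1299 and 832 RPKM in wild type. The log2 fold change was negative for 8 and positive for 1, *A9*, whose groups overlapped. The summed level of 3 seed coat endothelium markers was higher, at 100.7 and 118.0 RPKM in *stk*, against 49.8 and 53.7 RPKM in wild type. All 3 were past the unadjusted p, where 5.66% of all loci were higher. The study had already reported these 3, *BAN*, *TT12* and *AHA10*, from the same libraries, so they are no independent check. Of 5 mature pollen markers 0 passed the unadjusted p, and 3 had both *stk* libraries below both wild-type ones, against 26.8% of all loci. Of 7 floral organ and ovule markers 1 passed, *STK* itself. Every marker on the 5 lists, which also cover mature pollen and the floral organs and ovule, was above 0 in all 4 libraries, and the part that the tapetum or endothelium cells have in the wax results was not tested.

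All 10 wax genes were strongly expressed and passed the filter of a mean of at least 1 RPKM, which 19044 loci passed. Their mean over the 4 libraries stood above that of 92.2% (*CER2*) to 99.6% (*CER1*) of these loci. Together they summed to 2005.14 and 2088.86 RPKM in *stk*, against 1878.3 and 1872.55 RPKM in wild type, so both *stk* sums were above both wild-type sums. As a share of all RPKM in the library, which other genes also set, the sum was 0.295% and 0.352% in *stk*, against 0.298% and 0.319% in wild type, and here the genotypes overlapped. *CER1* alone made up 29.7% and 31.8% of the sum in *stk* and 31.3% and 33.9% in wild type.

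The order of levels began alike in both genotypes. *CER1* was highest, then *CER6*, *CER3*, *CER10*, *KCR1* and *ABCG11*, and in both genotypes the ranges of neighbours in this order from *CER1* down to *ABCG11* did not overlap. Below that, *KCS1* followed *ABCG11* with overlapping ranges in *stk*, whereas in wild type *ABCG11* stood clear of *KCS1*, and *KCS1*, *CER5*, *CER4* and *CER2* had ranges that overlapped from neighbour to neighbour. In *stk*, *KCS1* stood clear of *CER4*, *CER4* and *CER5* overlapped, and *CER2* was lowest, with a range that did not overlap that of *CER5*.

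**Figure D1:**
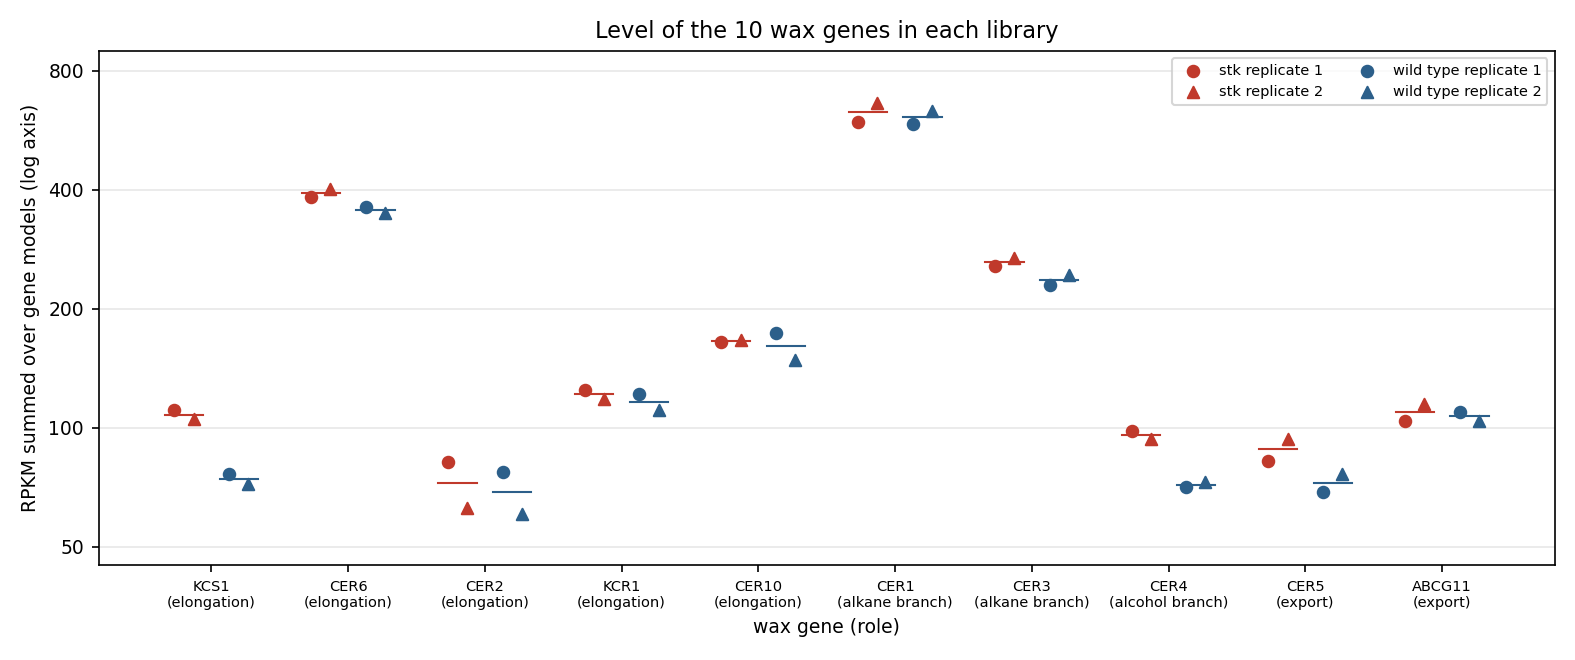
Level of each wax gene in each library, in RPKM summed over gene models on a log axis, with *stk* in red left of wild type in blue, circles for replicate 1, triangles for replicate 2 and short lines for the group means. *KCS1* sits at 111 and 105 RPKM in *stk* and at 76.3 and 72.1 RPKM in wild type, the widest gap of the 10 relative to its level.

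The direction was towards *stk* for every member, but small. In limma on log2(RPKM + 1), 10 of 10 wax genes had a positive log2 fold change, with a median of 0.10 and a range from 0.03 to 0.53, while 7659 loci had a positive and 11385 a negative one among all tested, with a median of -0.05. Under quantile normalization of the libraries 4 of the 10, *KCR1*, *CER10*, *CER1* and *ABCG11*, came out below 0, the lowest at -0.08 (*CER1*). At an unadjusted p under 0.05, 2 of the 10 were higher in *stk*, *KCS1* and *CER4*, where 5.66% of all loci were, and 0 of the 10 were lower, where 3.53% of all loci were. After Benjamini-Hochberg adjustment over all 19044 loci limma called 0 of them (0.0%), wax genes included, although 1077 were higher and 672 lower at an unadjusted p under 0.05. The study used Baggerley's test. A version of it computed here on shares of the summed RPKM gave 56 loci with an adjusted p under 0.05, none of them a wax gene.

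Both *stk* libraries stood above both wild-type libraries for 5 of the 10, *KCS1*, *CER6*, *CER3*, *CER4* and *CER5*, against 16.3% of all loci. None of the 10 had both *stk* libraries below both wild-type ones, against 26.8% of all loci. None met the criteria of the study's methods, an unadjusted p of at most 0.05 with group means at least 2-fold apart, which 3.42% of all loci met with limma's p, and none did with means 1.5-fold apart. With 2 libraries against 2, a two-sided exact permutation test of a single gene cannot go below p = 0.33. Each member rested on about 2074 to 51218 reads per library, estimated from RPKM, RefSeq exon lengths and the recovered read totals. By this estimate counting error alone was about 0.66% to 2.2% of the level in the library with the fewest reads. The coefficient of variation between replicates of a genotype reached 3.2% (*CER6* and *CER4*) to 18.8% (*CER2*).

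**Figure D2:**
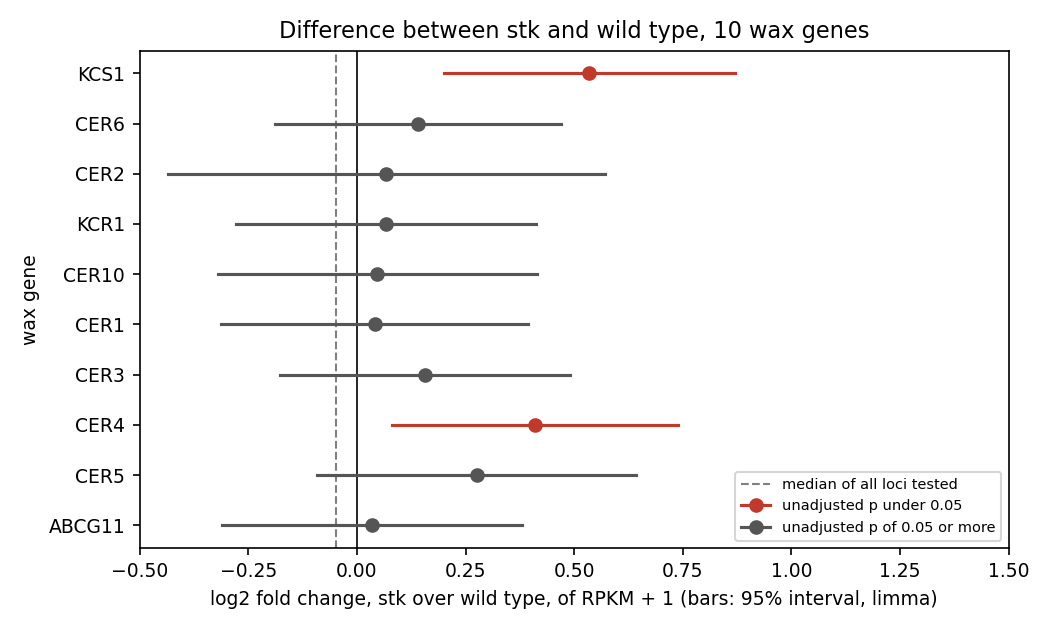
Log2 fold change, *stk* over wild type, of RPKM + 1 for each wax gene, with bars for the 95% interval from limma, red where the unadjusted p was under 0.05, and a dashed line at the median of all loci tested, -0.05. All 10 points lie right of 0, and the interval clears 0 for *KCS1* and *CER4* alone.

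The elongation step held the member with the largest difference. *KCS1* (AT1G01120, chromosome 1, 57269 to 59167, minus strand, a single exon in RefSeq) encodes a condensing enzyme of the elongation complex. It had 111 and 105 RPKM in *stk*, against 76.3 and 72.1 RPKM in wild type. Both *stk* libraries were above both wild-type libraries, and the means, 108 ± 4.19 RPKM in *stk* and 74.2 ± 2.96 RPKM in wild type (SD, n = 2 each), were 1.45-fold apart. The log2 fold change was 0.53 (standard error 0.13, 95% interval 0.20 to 0.87, unadjusted p = 0.00839, adjusted p = 0.486, limma). The unadjusted p stayed under 0.05 with each of the 4 libraries left out in turn, and the lowest adjusted p among 15 alternatives was 0.161 (limma). Of the 2003 windows of 50 bases in its exons, 1 fitted another gene, *KCS20*, with at most 2 mismatches, so that reads shared with its relatives had little weight.

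*CER6* (AT1G68530, chromosome 1, 25712588 to 25714807, minus strand) encodes the condensing enzyme on which most shoot wax depends and is also known for the lipids of the pollen coat. It had 384 and 401 RPKM in *stk*, against 362 and 350 RPKM in wild type. The groups did not overlap, but the log2 fold change was 0.14 (95% interval -0.19 to 0.47) and the unadjusted p 0.331 in limma (adjusted p = 0.762). The 2 condensing enzymes share 56.9% of aligned residues in the RefSeq proteins, and none of the 50-base windows of *CER6* fitted elsewhere, not even in *KCS5*, which is 88.6% identical to it in protein.

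Of the 2 models of *CER6*, the longer one, with 2 exons, carried 86.7% and 89.0% of the level in *stk* and 89.5% and 89.6% in wild type. The single-exon model had 50.9 and 44.1 RPKM in *stk*, against 38.1 and 36.4 RPKM in wild type, again without overlap. Since the 2 models share sequence, the split between them was made by the mapping software and is less certain than their sum.

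*CER2* (AT4G24510, chromosome 4, 12660749 to 12662656, plus strand) encodes a protein that enables *CER6* to reach the longest chains. It had 82.0 and 62.7 RPKM in *stk*, against 77.3 and 60.5 RPKM in wild type. Replicate 1 was the higher library within each genotype, and the spread of SD 13.6 RPKM in *stk* and 11.9 RPKM in wild type was wider than the difference of the means, 72.3 and 68.9 RPKM. The log2 fold change was 0.07 (95% interval -0.44 to 0.57, limma unadjusted p = 0.75, adjusted p = 0.934). *CER2* overlaps AT4G24520 on the opposite strand by 96 bases in the files, and no use of strand is stated for the counting, so reads there could not be told apart.

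The remaining members of the cycle differed between genotypes by less than the larger SD between replicates. *KCR1* (AT1G67730, chromosome 1, 25391460 to 25393610, plus strand), the ketoacyl-CoA reductase, had 125 and 118 RPKM in *stk*, against 122 and 111 RPKM in wild type. *CER10* (AT3G55360, chromosome 3, 20520930 to 20523014, minus strand), the enoyl-CoA reductase that closes the cycle, had 165 and 166 RPKM in *stk*, against 174 and 148 RPKM in wild type. For both, the *stk* libraries lay within or across the wild-type range. The log2 fold changes were 0.07 (95% interval -0.28 to 0.41) for *KCR1* and 0.05 (95% interval -0.32 to 0.41) for *CER10*, with adjusted p = 0.899 and 0.935 in limma.

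In the alkane branch both members were among the most abundant and differed little. *CER1* (AT1G02205, chromosome 1, 418767 to 422437, plus strand) encodes the enzyme that forms alkanes together with CER3. It had 596 and 663 RPKM in *stk*, against 589 and 634 RPKM in wild type. The groups overlapped, with replicate 2 the higher library in each genotype, and the log2 fold change was 0.04 (95% interval -0.31 to 0.39, limma adjusted p = 0.944).

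*CER1* has 3 gene models in the files. The most abundant one carried 75.9% and 70.5% of the level in *stk* and 71.3% and 68.1% in wild type. The second was listed at 0 in *stk* replicate 1 and at 22.0 RPKM in *stk* replicate 2, against 11.3 and 45.7 RPKM in wild type, and the third had 144 and 174 RPKM in *stk*, against 158 and 156 RPKM in wild type. The models overlap in sequence, so their shares are the software's split of common reads. With the most abundant model used for each locus, no call among the 10 wax genes changed.

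*CER3* (AT5G57800, chromosome 5, 23420209 to 23424052, plus strand) encodes the partner of CER1, with which it shares 34.7% of aligned residues. It had 257 and 269 RPKM in *stk*, against 229 and 243 RPKM in wild type. Both *stk* libraries were above both wild-type libraries, and the log2 fold change was 0.16 (95% interval -0.18 to 0.49, limma unadjusted p = 0.29, adjusted p = 0.742).

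The alcohol branch is represented by *CER4* (AT4G33790, chromosome 4, 16204157 to 16207947, minus strand), the fatty acyl-CoA reductase that makes primary alcohols. It had 98.0 and 93.6 RPKM in *stk*, against 70.8 and 73.0 RPKM in wild type. The groups did not overlap, and the means were 95.8 ± 3.09 RPKM in *stk* and 71.9 ± 1.51 RPKM in wild type (SD, n = 2 each), 1.33-fold apart. The log2 fold change was 0.41 (standard error 0.13, 95% interval 0.08 to 0.74, unadjusted p = 0.0233, adjusted p = 0.514, limma). With 1 library left out it kept its size, 0.38 to 0.44, but the unadjusted p from limma was then 0.111 and 0.0643 without *stk* replicate 1 and 2, and 0.0768 and 0.0589 without wild-type replicate 1 and 2 (lowest adjusted p = 0.411).

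At the export step neither of the 2 half-transporters passed the unadjusted threshold, and the difference between them was not tested. *CER5* (AT1G51500, also called ABCG12, chromosome 1, 19097797 to 19101080, minus strand) had 82.6 and 93.8 RPKM in *stk*, against 68.9 and 76.5 RPKM in wild type. The groups did not overlap, with a log2 fold change of 0.28 (95% interval -0.09 to 0.64), an unadjusted p of 0.115 in limma and an adjusted p of 0.616. It was past the unadjusted threshold only with each library's trend against exon length removed, at a log2 fold change of 0.39 (limma unadjusted p = 0.0357, adjusted p = 0.351).

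*ABCG11* (AT1G17840, chromosome 1, 6142564 to 6146521, plus strand) encodes a half-transporter that exports wax and cutin lipids, as a pair with CER5 or with itself. It had 104 and 115 RPKM in *stk*, against 110 and 104 RPKM in wild type, with overlapping groups and a log2 fold change of 0.03 (95% interval -0.31 to 0.38, limma adjusted p = 0.95). *ABCG11* and *CER5* share 55.6% of aligned residues, and no 50-base window of either fitted elsewhere. *ABCG11* overlaps AT1G17850 on the opposite strand by 596 bases, a gene with 7.71 and 6.35 RPKM in *stk*, against 7.01 and 7.36 RPKM in wild type.

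Ratios between members of the same library do not depend on the scaling between libraries. The pairs were chosen after the values were seen, so they describe unequal differences and carry no test. *KCS1* over *CER6* was 0.289 and 0.262 in *stk*, against 0.211 and 0.206 in wild type, and *KCS1* over *KCR1* was 0.888 and 0.888 in *stk*, against 0.627 and 0.652 in wild type. *CER4* over *CER1*, the alcohol branch set against the alkane branch, was 0.164 and 0.141 in *stk*, against 0.120 and 0.115 in wild type. *CER5* over *ABCG11* was 0.792 and 0.815 in *stk*, against 0.627 and 0.734 in wild type. In these 4 pairs both *stk* values were above both wild-type values. *CER2* over *CER6* was 0.214 and 0.156 in *stk*, against 0.214 and 0.173 in wild type, and overlapped.

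**Figure D3:**
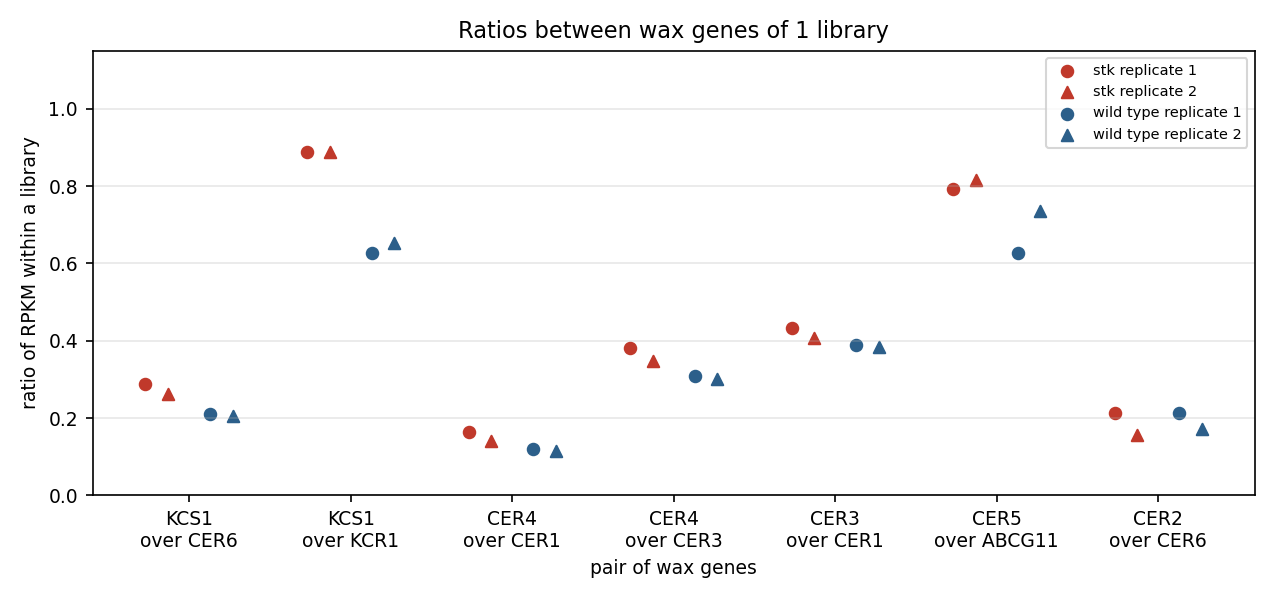
Ratio of RPKM between pairs of wax genes within each library, on a linear axis from 0, with *stk* in red left of wild type in blue, circles for replicate 1 and triangles for replicate 2. *KCS1* over *KCR1* lies at 0.888 in both *stk* libraries and at 0.627 and 0.652 in wild type, whereas *CER2* over *CER6* overlaps between the genotypes.

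Set against the geometric mean of the 6 epidermis markers, which was 69.1 and 69.0 RPKM in *stk* and 79.7 and 66.0 RPKM in wild type, *KCS1* stood at 1.60 and 1.52 in *stk*, against 0.958 and 1.09 in wild type. *CER4* stood at 1.42 and 1.36 in *stk*, against 0.889 and 1.11 in wild type. For both genes the *stk* values were above the wild-type values on this scale too, with log2 differences of 0.61 for *KCS1* and 0.48 for *CER4*. *CER1*, at 8.62 and 9.62 in *stk*, against 7.39 and 9.61 in wild type, *CER2* and *ABCG11* overlapped on this scale. The other 7 members had both *stk* libraries above both wild-type ones, against 20.4% of all loci on the same scale, and none had both below, against 18.2% of all loci.

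Beyond the 10, 39 further genes of the wax pathway were listed by role, and 38 passed the filter on low values. At an unadjusted p under 0.05 in limma 3 of the 38 were higher in *stk* (*KCS3*, *CER26* and *SHN3*) and 0 were lower, against 5.66% and 3.53% of all loci, a share near the background, with a median log2 fold change of 0.00 and 19 genes on either side of 0. None had an adjusted p under 0.05. Both *stk* libraries were above both wild-type ones for 10 of the 38, against 16.3% of all loci, and below them for 3, against 26.8% of all loci.

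Of 9 elongation partners, 2 were past the unadjusted threshold, both higher, where 5.66% of all loci were. *KCS3*, a further member of the condensing-enzyme family that shares 40.3% of aligned residues with *KCS1*, had 61.1 and 57.0 RPKM in *stk*, against 42.9 and 38.4 RPKM in wild type (log2 fold change 0.53, limma unadjusted p = 0.0109, adjusted p = 0.502). *CER26*, a relative of *CER2* with 36.2% identity, had 38.9 and 44.7 RPKM in *stk*, against 22.6 and 31.6 RPKM in wild type (log2 fold change 0.62, limma unadjusted p = 0.0228, adjusted p = 0.514). Neither overlapped between the genotypes. Without wild-type replicate 2 the log2 fold change of *KCS3* was 0.45 (limma unadjusted p = 0.0554, adjusted p = 0.592). Without wild-type replicate 1 that of *CER26* was 0.39 (limma unadjusted p = 0.104, adjusted p = 0.955), and in Baggerley's test the unadjusted p of *CER26* was 0.101. *PAS2*, the dehydratase of the cycle and the most abundant of this list, had 189 and 174 RPKM in *stk*, against 199.9 and 162 RPKM in wild type, and the median log2 fold change of the 9 was 0.01.

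None of the 5 genes of precursor supply passed the unadjusted threshold in limma. The most abundant, *LACS1*, an acyl-CoA synthetase of the wax and cutin pathways, had 188 and 183 RPKM in *stk*, against 199.6 and 181 RPKM in wild type, and the median log2 fold change of the 5 was -0.03.

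Of 7 further genes of the alkane and ester branches, 6 had a positive log2 fold change, with a median of 0.21, and 0 passed the unadjusted threshold in limma. *MAH1*, the cytochrome P450 that oxidises alkanes to secondary alcohols and ketones, had 307 and 278 RPKM in *stk*, against 255 and 266 RPKM in wild type (log2 fold change 0.17, limma unadjusted p = 0.275, adjusted p = 0.734). The cytochrome b5 genes that serve CER1, *CYTB5-B*, *CYTB5-D* and *CYTB5-E*, were chosen for mention after their values were seen. All 3 had both *stk* libraries above both wild-type libraries, as did *MAH1* and *WSD1* of the same list. That made 5 of the 7 genes, against 16.3% of all loci. *CYTB5-D* had 254 and 162 RPKM in *stk*, against 139 and 142 RPKM in wild type, so that *stk* replicate 1, the library of the other lane, stood far above the rest. *CYTB5-B* had 95.5 and 58.4 RPKM in *stk*, against 50.9 and 49.5 RPKM in wild type, with the same library on top. *CYTB5-C*, the fourth cytochrome b5 gene of the list, had 8.84 and 7.33 RPKM in *stk*, against 11.5 and 3.96 RPKM in wild type, and its groups overlapped.

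Among 6 export partners and 12 regulators the log2 fold changes lay on both sides of 0, with medians of -0.04 and 0.00 (11 regulators tested, since *SHN2* was below the filter). *LTPG2*, a lipid transfer protein anchored to the membrane and the most abundant export partner, had 242 and 225 RPKM in *stk*, against 262 and 224 RPKM in wild type. *SHN3*, an AP2 domain factor of the SHINE clade that controls surface lipids, had 31.2 and 24.5 RPKM in *stk*, against 20.9 and 20.1 RPKM in wild type (log2 fold change 0.41, limma unadjusted p = 0.0487, adjusted p = 0.539). Its groups did not overlap, and without *stk* replicate 1 the log2 fold change was 0.25 (limma unadjusted p = 0.293, adjusted p = 0.941), without wild-type replicate 1 it was 0.44 (unadjusted p = 0.124) and without wild-type replicate 2 it was 0.39 (unadjusted p = 0.16). The unadjusted p of *SHN3* was also above 0.05 with pseudocounts of 0.1 (0.0602) and 0.01 (0.0619), with the most abundant gene model (0.107) and in Baggerley's test (0.202). *CER9*, a ubiquitin ligase that restrains wax and cutin synthesis and the most abundant regulator, had 42.6 and 46.1 RPKM in *stk*, against 49.3 and 46.0 RPKM in wild type.

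**Figure D4:**
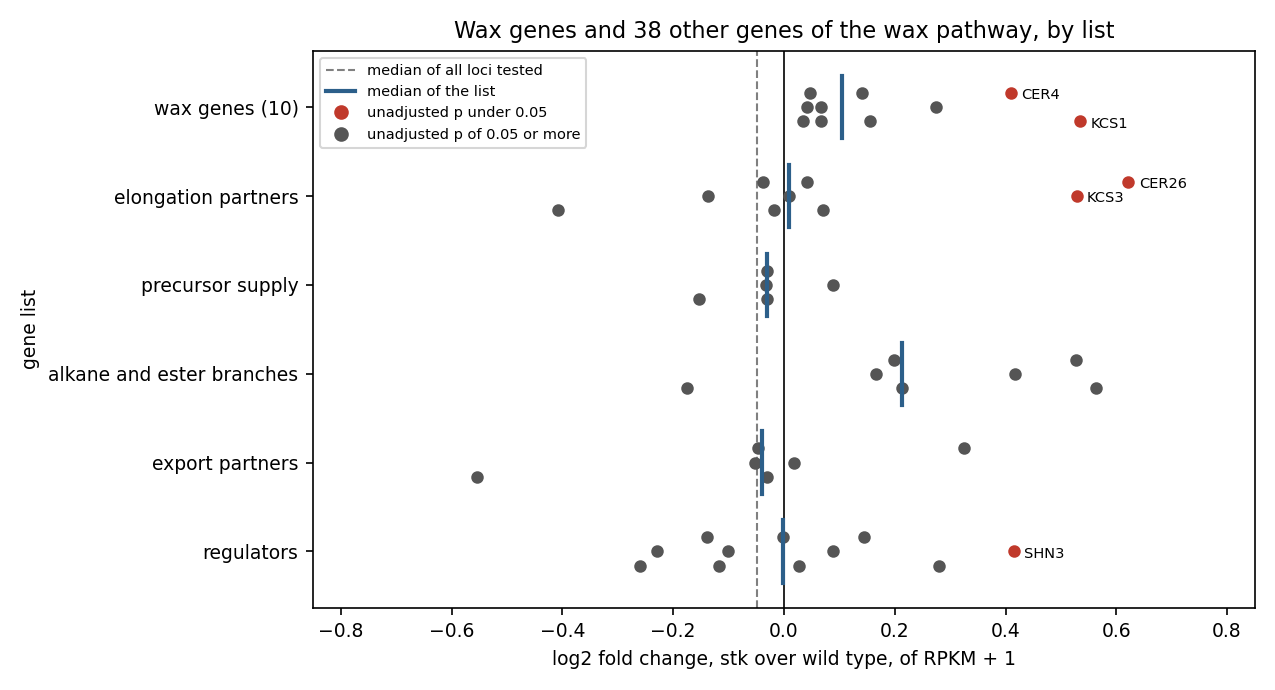
Log2 fold change, *stk* over wild type, of RPKM + 1 for the 10 wax genes and for 38 other genes of the pathway, 1 row per list, with a blue line at each list's median, red points where the limma unadjusted p was under 0.05 and a dashed line at the median of all loci tested. The medians run from -0.04 (export partners) to 0.21 (alkane and ester branches), and the 10 wax genes have theirs at 0.10.

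The fold changes of the members were compared over 15 alternatives of processing, test or library choice. Other filters, limma trend, the replicate block and Baggerley's test leave a member's fold change as it is by construction. The most abundant gene model changes it for *CER1* and *CER6* alone. *KCS1* kept a log2 fold change between 0.48 and 0.62, *CER4* between 0.37 and 0.48 and *CER5* between 0.18 and 0.39, and *CER6* and *CER3* stayed above 0 throughout. *CER2*, *KCR1*, *CER10*, *CER1* and *ABCG11* each had alternatives on either side of 0, with none of them past the unadjusted threshold in any.

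**Figure D5:**
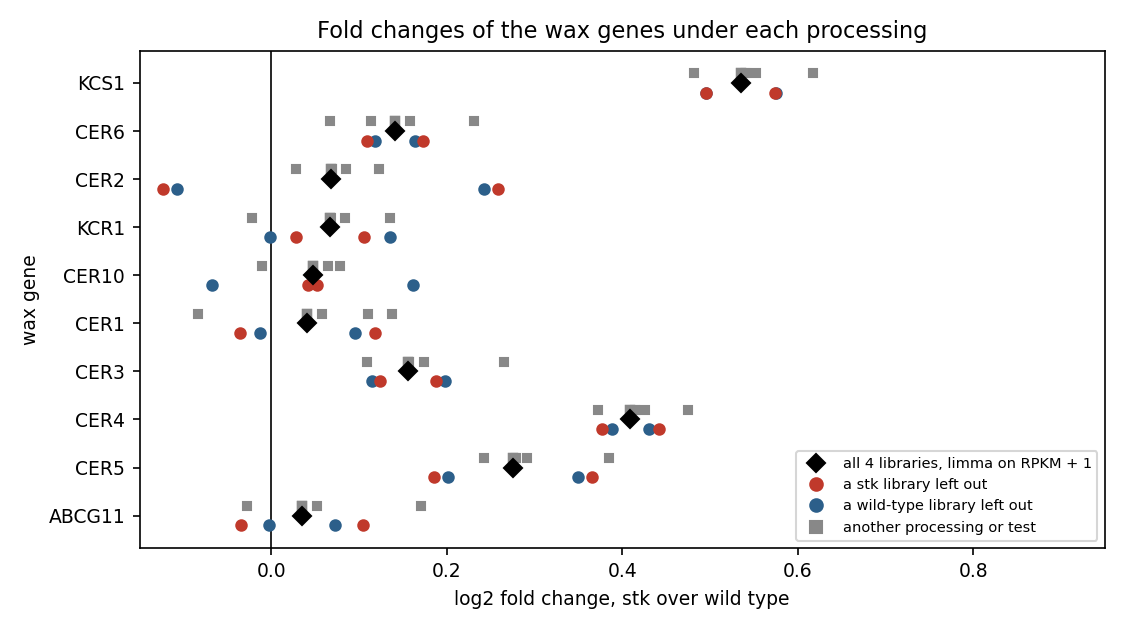
Log2 fold change, *stk* over wild type, of each wax gene with all 4 libraries in limma (black diamonds), with a *stk* library (red) or a wild-type library (blue) left out, and under another processing or test (grey squares). *KCS1* stays between 0.48 and 0.62, whereas the points of *CER2* spread from -0.12 to 0.26.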

How the data were processed

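RNA-Seq libraries of *stk* and wild type (2 biological replicates each) were made with a TruSeq kit and sequenced as single reads of 50 bases. The authors mapped the trimmed reads to TAIR10 in CLC Genomics Workbench with at most 2 mismatches, divided reads that fit up to 10 places by the unique reads of each place, and deposited RPKM values per gene model. FastQC is named in the submitters' processing notes. RPKM corrects for exon length and depth but not for a shift in RNA composition, and the strand used in counting is not given in the sources used here. The 2 tables of enriched terms that the authors deposited hold their own comparisons and were not used.

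RPKM was summed over the models of each locus (35176 models of 27206 loci). Depth was recovered from the steps of the RPKM values at 4980 loci, of which 98.6% to 99.0% of the low values were whole reads within 0.05. Genotypes were compared with limma 3.58.1 (R 4.3.3) on log2(RPKM + 1) for loci with a mean of at least 1 RPKM, without covariates, with Benjamini-Hochberg adjustment over all 19044 loci. A pseudocount of 1 understates changes of low genes. The limma fit was tested on simulated data with independent noise and no shift of a whole library, so that test does not cover such shifts. The alternatives were pseudocounts of 0.1 and 0.01, other filters, quantile normalization, upper-quartile scaling, limma trend, the most abundant gene model, removal of the exon length trend, a replicate block, Baggerley's test and leaving out each library. Baggerley's test was computed here on each locus's share of the summed RPKM, with these sums and not the reads as library totals. Its results can therefore differ from those of the study. A block with crossed numbers was added after the data were seen. Exon windows of 50 bases were mapped with bwa 0.7.19. Promoters, exons and proteins are those of RefSeq on TAIR10.1, and locus positions are those of the files. Gene starts can differ between them, so distances of motifs from a start hold for RefSeq starts.

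The members and lists were chosen with earlier results of these data known. Genes named are the 10 members, *STK*, and in the pathway lists each gene with an unadjusted p under 0.05 and the most abundant one. Exceptions are stated where they occur.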

Additional observations from a re-analysis of the deposited data

How the results depend on the processing

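With 1 library left out, the 10 wax genes gave 1 call higher in *stk* (*KCS1*) in place of 2, whichever library was left out, and over all loci 424 to 2350 were higher, 309 to 936 lower and 0 to 1570 had an adjusted p under 0.05 (limma). The lone library of a genotype is then assumed to vary like the other genotype. The median log2 fold change of the wax genes was 0.11 to 0.16, the highest without wild-type replicate 1. The adjusted calls numbered 1570 without *stk* replicate 2 and 324 without *stk* replicate 1. Leaving out a library moved the log2 fold change of *CER1* between -0.036 and 0.118, *CER2* between -0.123 and 0.258, *KCR1* between -0.001 and 0.135, *CER10* between -0.068 and 0.162, *ABCG11* between -0.035 and 0.105, *PAS2* between -0.141 and 0.157, *LACS1* between -0.103 and 0.041 and *LTPG2* between -0.166 and 0.059. Quantile normalization gave log2 fold changes of -0.022 for *KCR1*, -0.011 for *CER10*, -0.084 for *CER1*, -0.028 for *ABCG11* and -0.071 for *PAS2*, with a median of 0.05 for the wax genes, 1051 loci lower and 5 adjusted calls. Upper-quartile scaling gave 5 adjusted calls and limma trend gave 1. With the exon length trend removed the median log2 fold change of the wax genes was 0.20, 1139 loci were lower and 4 had an adjusted call, and *PAS2* was at -0.082, *LACS1* at 0.075 and *CER9* at 0.05. The most abundant gene model gave 660 loci higher and *CER9* at 0.13. Baggerley's test gave 253 loci higher, 240 lower and 56 adjusted calls. The cause of these shifts was not tested.

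The deviations of the replicates numbered 1 from their group means correlated at -0.127 over 19044 genes, a value that shows no pairing by number. Whether samples of the same number were handled together is not given by the labels, and this value cannot decide it. With the replicate block, 2 wax genes were higher and 0 lower, and over all loci 1061 were higher, 1006 lower and 0 had an adjusted p under 0.05. With crossed numbers 1 wax gene was higher, 1476 loci were higher, 426 lower and 921 had an adjusted call. Of 150 comparisons of a member with an alternative, 133 kept direction and side of the unadjusted threshold, 12 changed sign, 4 lost the call and 1 gained it. The count of kept directions was partly fixed in advance, since several alternatives leave the fold change as it is. With 2 libraries per genotype the 95% intervals of 8 of the 10 members include 0 and reach log2 differences of 0.38 to 0.64, so differences of that size could be missed.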
